A study of Mus musculus with 8 samples.

Results

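The insulin signalling cascade that stands on either side of PI3K was followed through 9 genes, the receptors Insr and Igf1r, the receptor brake Grb10, the adaptors Irs1 and Irs2, the kinases Akt1 and Akt2 and the transcription factors Foxo1 and Foxo3. The genes were taken as a list, by matching the Ensembl identifiers of the count file to mouse symbols, and all 9 were found among 43629 genes. Each passed the filter on low counts. The cells were 3T3-L1, a line of mouse pre-adipocytes that turns into adipocytes in culture. They were differentiated with insulin, dexamethasone, isobutylmethylxanthine and rosiglitazone, and treated for 24 h from day 8. A66 is a small molecule that inhibits p110α, the catalytic subunit of PI3K encoded by Pik3ca. There were 4 groups of 2 libraries each. One group was untreated, one received A66 at 2 μM, one received palmitate, a saturated fatty acid given on albumin, at 0.5 mM, and one received palmitate plus A66 at those same doses. The labels name the control cells untreated, and the protocols in the labels name neither a vehicle for A66 nor albumin alone. All groups are derived from one cell line in culture, and the protocols name no acute dose of insulin before RNA extraction.

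Insulin and IGF-1 bind receptor tyrosine kinases, which phosphorylate the IRS proteins. The IRS proteins dock PI3K at the membrane, the lipid made by PI3K recruits and activates AKT, and AKT phosphorylates FOXO proteins so that they leave the nucleus. In many cells a fall in AKT activity frees FOXO to raise transcription of receptor and IRS genes, which is the feedback that an inhibitor of PI3K might engage. In adipocytes the cascade drives glucose uptake and restrains lipolysis. The counts measure mRNA, not the phosphorylation state of any of these proteins.

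The libraries held between 42247091 and 57529803 counts, and 3 counts, taken as the floor of detection, correspond to 0.0519 to 0.0706 CPM. CPM is the customary depth-corrected count, the counts of a gene relative to the TMM-scaled library total, and the floor covers counting error only. Of the 11 adipocyte markers, all were at 1 CPM or more on average, and their summed level was 15452 to 18435 CPM. Of the 4 macrophage markers Cd68 alone reached 1 CPM, Adgre1 had no counts in any library, and the sum was 2.76 to 5.94 CPM. Of the 7 pre-adipocyte and fibroblast markers 5 reached 1 CPM, with Dlk1 at 0 counts, and none of 3 brown adipocyte markers and none of 3 endothelial markers did. The brown marker Ucp1 and the endothelial marker Kdr had 0 counts in every library. In such bulk cultures, fewer cells of a type and less RNA per cell cannot be told apart.

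The starts of 3 of the genes are shown because Igf1r was the gene of the 9 that passed the test under A66, and because Irs1 and Irs2 carry the same short element. Each sequence is the 250 bases before the RefSeq transcription start on GRCm38.p6, read 5′ to 3′ on the strand of the gene. Capitals mark matches, on either strand, to the E-box CACGTG, to the GC box GGGCGG and to the FOXO element GTAAACA. The Igf1r window lies on the plus strand at chr7:67952007-67952256, and the annotated start of the gene in GENCODE is 570 bases further downstream. The Irs1 window lies on the minus strand at chr1:82291440-82291689, and the Irs2 window on the minus strand at chr8:11008930-11009179.

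Igf1r: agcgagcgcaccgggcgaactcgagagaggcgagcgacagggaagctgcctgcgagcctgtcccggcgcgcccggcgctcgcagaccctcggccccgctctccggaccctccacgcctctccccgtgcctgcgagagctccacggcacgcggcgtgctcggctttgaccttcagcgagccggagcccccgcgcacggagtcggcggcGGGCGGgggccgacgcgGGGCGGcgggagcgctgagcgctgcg

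Irs1: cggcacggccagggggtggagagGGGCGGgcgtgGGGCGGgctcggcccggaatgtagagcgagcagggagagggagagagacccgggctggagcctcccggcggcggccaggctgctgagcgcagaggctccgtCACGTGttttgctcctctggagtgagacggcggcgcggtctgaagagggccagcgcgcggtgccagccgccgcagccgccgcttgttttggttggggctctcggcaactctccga

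Irs2: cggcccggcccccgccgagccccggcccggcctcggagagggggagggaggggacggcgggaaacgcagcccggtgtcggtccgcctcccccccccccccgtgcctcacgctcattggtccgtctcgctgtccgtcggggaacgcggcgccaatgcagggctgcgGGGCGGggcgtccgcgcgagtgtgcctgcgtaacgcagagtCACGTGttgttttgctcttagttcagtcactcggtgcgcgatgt

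The Igf1r window held 2 GC boxes, which begin 43 and 26 bases before the start, and its GC content was 77.6% beside a median of 52.4% over all 32851 windows. An E-box began 115 bases before the start of Irs1 and 44 bases before the start of Irs2. Over all windows the E-box was found in 6.02%, the GC box in 32.7% and the FOXO element in 3.17%. Of the 9 genes 8 had RefSeq windows, 13 windows in all, and among these the E-box was in 2, the GC box in 8 and the FOXO element in 1, a window of Akt1. The letters are a description of the sequence and not evidence of binding.

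The order of the levels was compared per length, as CPM divided by the length of all annotated exons in kb. Akt1 was the highest at a median of 49.8 CPM per kb over the 8 libraries, with a range of 47.8 to 50.8. Akt2 followed at 44.5 (40.8 to 47.3), then Irs1 at 27.9 (26.9 to 30.2) and Insr at 27.9 (26.4 to 29.6). The levels of Irs1 and Insr overlapped, Irs1 being the higher of them in 5 of 8 libraries. Irs2 was at 7.37 CPM per kb, Foxo3 at 5.53 and Foxo1 at 4.42. Igf1r stood at 1.15 CPM per kb and Grb10 at 0.268, so the 2 lowest genes were the IGF-1 receptor and the receptor brake. For all neighbours in this order other than Irs1 and Insr, the ranges over the libraries did not overlap. When the longest coding transcript was used as the length, the median of Insr was 41.0 CPM per kb and that of Irs1 remained 27.9, and the ranges of Akt1 (72.8 to 77.4) and Akt2 (64.1 to 74.2) overlapped.

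**Figure D1:**
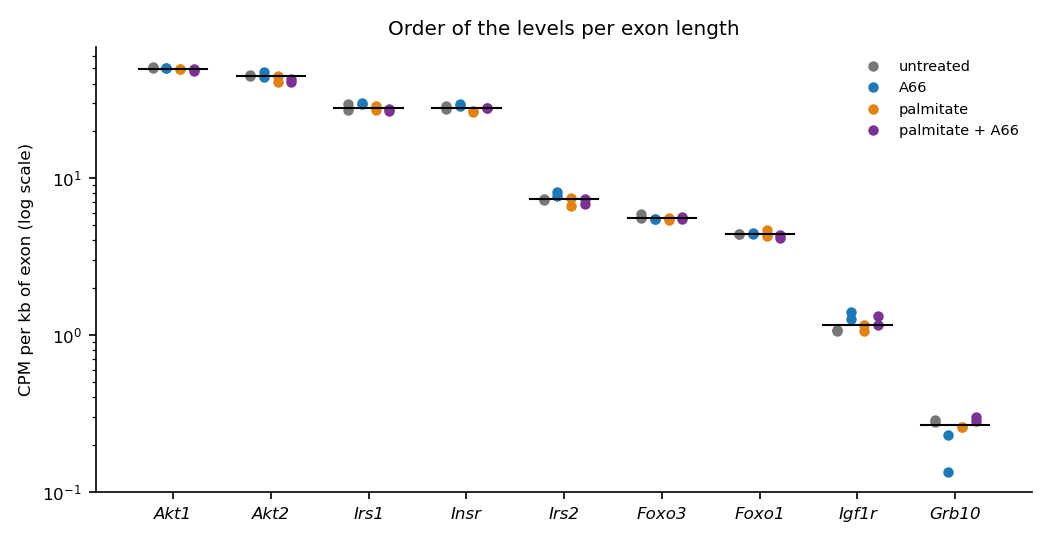
Level of each gene per length, in CPM per kb of exon on a log axis. Points are the 8 libraries coloured by group and bars are medians. Akt1 at 49.8 and Akt2 at 44.5 lie highest, Irs1 and Insr overlap at 27.9, and Grb10 lies lowest at 0.268 with 1 A66 library apart from the rest.

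The Insr gene spans chr8:3122061-3279617 on the minus strand (GRCm38) and encodes the insulin receptor. Its level was 397 and 381 CPM in the untreated libraries, 407 and 398 CPM after A66, 365 and 363 CPM after palmitate, and 383 and 384 CPM after both. The A66 libraries were the highest and the palmitate libraries the lowest, and the palmitate plus A66 libraries lay within the span of the untreated ones. A66 alone changed Insr by a log2 value of 0.053 (95% confidence interval -0.028 to 0.13, adjusted p = 0.631), and A66 on palmitate changed it by 0.075 (-0.0072 to 0.16, adjusted p = 0.400). Palmitate alone gave -0.095 (-0.18 to -0.013, adjusted p = 0.316). No comparison of Insr passed the test.

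The Igf1r gene spans chr7:67952827-68233668 on the plus strand and encodes the receptor for IGF-1, which also pairs with the insulin receptor in hybrid receptors. Its level was 18.1 and 17.8 CPM in the untreated libraries and 21.2 and 23.4 CPM with A66. Both A66 libraries lay above both untreated libraries, at means of 22.3 ± 1.54 and 17.9 ± 0.195 CPM (SD, n = 2). The rise was 24.5% (95% confidence interval 11.7% to 38.8%), a log2 fold change of 0.32 with a standard error of 0.08 and an adjusted p of 0.0293 in the edgeR quasi-likelihood test. In the presence of palmitate the level was 19.4 and 17.7 CPM without A66 and 22.1 and 19.3 CPM with it. Here the groups overlapped, since the lower palmitate plus A66 library was below the higher palmitate library. The log2 difference was 0.16 (-0.012 to 0.33, adjusted p = 0.391). It was 0.058 without the first and 0.25 without the second palmitate plus A66 library, and 0.094 without the second palmitate library. The A66 effect with palmitate minus that without it was -0.16 on the log2 scale (-0.40 to 0.083, adjusted p = 0.791), so a difference between both settings was not shown. With 1 library left out this value ran from -0.26 to -0.062. Averaged over both settings, a comparison added after the values had been seen, A66 raised Igf1r by 17.7% (8.32% to 27.9%, log2 0.24, adjusted p = 0.0167). The call of A66 against untreated cells rested on the second A66 library: without it the log2 value was 0.25 with an adjusted p of 0.377. It was also lost in DESeq2 (adjusted p = 0.0602) and when all 8 libraries shared a single fit (adjusted p = 0.0606), and the averaged call was lost on leaving out the second untreated, second A66, second palmitate or first palmitate plus A66 library, with adjusted p up to 0.125.

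The Grb10 gene spans chr11:11930508-12038683 on the minus strand and encodes an adaptor that binds the activated receptors and damps their signal. It was the scarcest of the 9, with 107 and 141 counts in the untreated libraries, 108 and 57 after A66, 136 and 126 after palmitate, and 124 and 135 after both. In CPM these were 2.52 and 2.61, 2.09 and 1.21, 2.35 and 2.35, and 2.56 and 2.71. The second A66 library stood apart from all others, and the other A66 library was also below both untreated ones. The log2 difference of A66 from untreated cells was -0.62 (95% confidence interval -1.11 to -0.13, adjusted p = 0.235). It was -0.29 without the second A66 library and -1.07 without the first. Palmitate plus A66 differed from A66 by 0.66 (0.21 to 1.11, adjusted p = 0.112). Without the first A66 library this value was 1.11 with an adjusted p of 0.0426, and without the second it was 0.34 with an adjusted p of 0.630. It also passed without the filter on low counts (0.0274). A66 on palmitate gave 0.16 (-0.26 to 0.59, adjusted p = 0.788), an interval that holds changes of either sign. The highest and lowest libraries of Grb10 differed 2.23-fold, beside 1.06-fold to 1.32-fold for the other 8 genes.

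**Figure D2:**
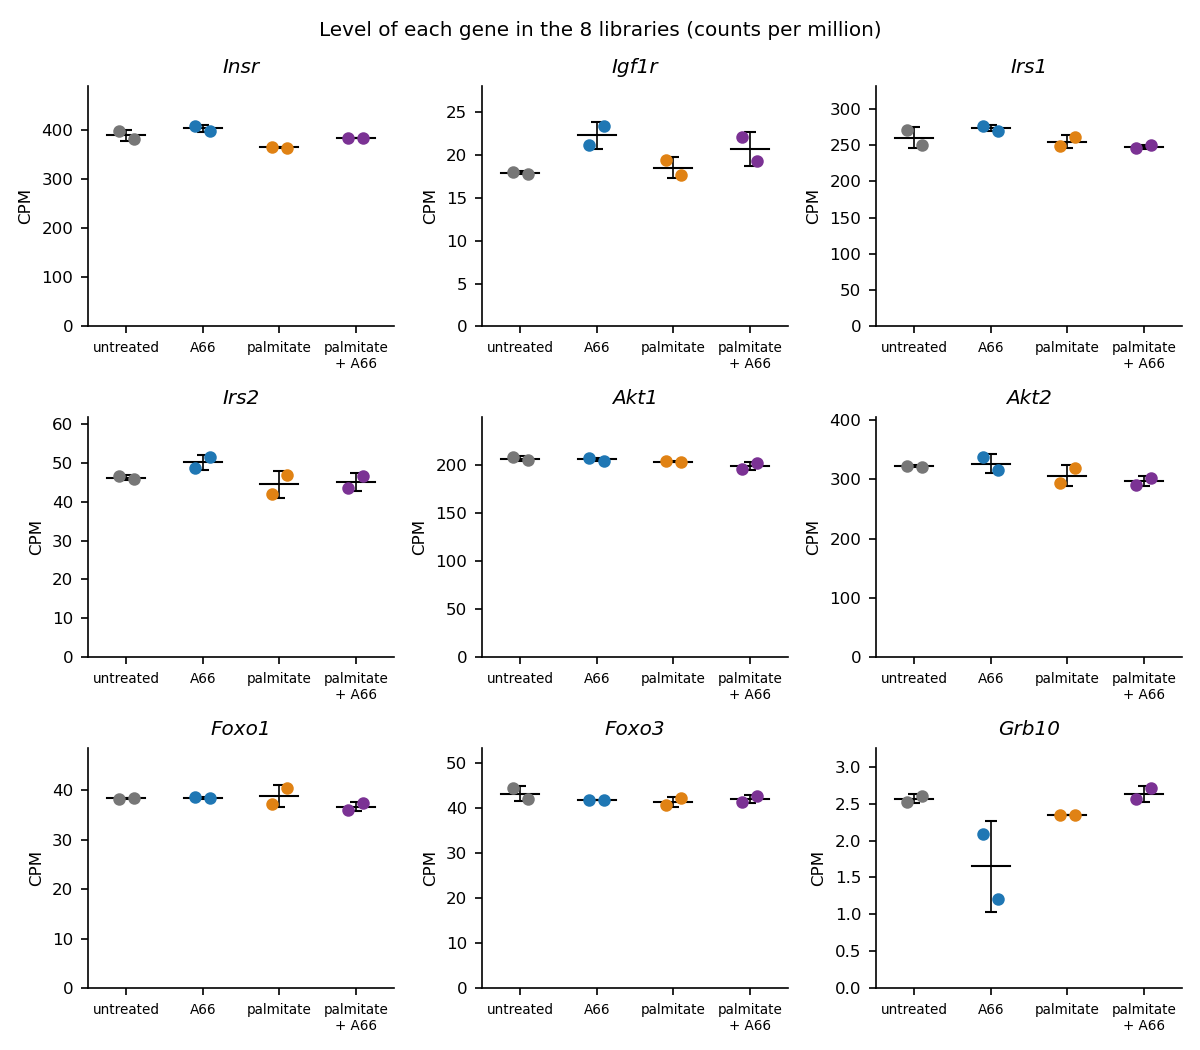
Level of each of the 9 genes in every library, in CPM from 0, by group. Points are libraries, the horizontal bars are group means and the error bars are SD (n = 2). Igf1r lies higher in both A66 libraries (21.2 and 23.4 CPM) than in both untreated ones, and the second A66 library of Grb10 (1.21 CPM) lies below all others.

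The Irs1 gene spans chr1:82233101-82291416 on the minus strand and encodes the adaptor that links the insulin receptor to PI3K in adipocytes. It shares 2822 exon bases with Gm9747 on the opposite strand, which had 0 to 2 counts per library. The level was 270 and 250 CPM in the untreated libraries, 276 and 270 CPM after A66, 249 and 261 CPM after palmitate, and 246 and 250 CPM after both. One A66 library was the highest, the other lay just below the higher untreated library, and these groups overlapped. A66 gave a log2 difference of 0.075 (-0.014 to 0.16, adjusted p = 0.495), and A66 on palmitate gave -0.041 (-0.13 to 0.050, adjusted p = 0.741). With 1 library left out these values ran from 0.021 to 0.13 and from -0.076 to -0.0048. Palmitate plus A66 was below A66 in both libraries, by -0.14 (-0.23 to -0.050), with an adjusted p of 0.0924. That difference passed the threshold in DESeq2 (adjusted p = 0.0454), with scaling by library size alone (0.0476) and without the filter on low counts (0.0297). It also passed in a fit of those 4 libraries only (0.0202). RLE scaling, a minimum count in every library and a replicate block in the main fit left it uncalled (adjusted p up to 0.0926). On leaving out each library in turn it did not pass, and the log2 value ran from -0.16 to -0.12.

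The Irs2 gene spans chr8:10984681-11008458 on the minus strand and encodes the second adaptor, a gene known for rapid turnover of its mRNA and for rising when insulin signalling falls in liver. It shares 162 exon bases with 9530052E02Rik on the opposite strand, which had 1 to 14 counts. The level was 46.5 and 45.7 CPM in the untreated libraries, 48.7 and 51.4 CPM after A66, 42.0 and 46.9 CPM after palmitate, and 43.4 and 46.7 CPM after both. Both A66 libraries were above those of every other group. The log2 difference of A66 from untreated cells was 0.12 (0.012 to 0.23, adjusted p = 0.318), an 8.85% higher level. A66 on palmitate gave 0.018 (-0.10 to 0.14, adjusted p = 0.930), and palmitate plus A66 differed from A66 by -0.15 (-0.27 to -0.033, adjusted p = 0.190). None of these passed the adjusted threshold in the fit of 8 libraries or, for A66 against untreated cells, of 4.

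The Akt1 gene spans chr12:112653821-112674884 on the minus strand and encodes the AKT kinase found in most tissues. It was the steadiest of the 9, with 208 and 205 CPM in the untreated libraries, 207 and 204 CPM after A66, 204 and 203 CPM after palmitate, and 196 and 201 CPM after both. The highest and lowest libraries differed 1.06-fold. A66 changed it by a log2 value of -0.0025, and the interval of -0.085 to 0.080 corresponds to a change between -5.74% and 5.72% (adjusted p = 0.990). On palmitate the A66 difference was -0.034 (-0.12 to 0.048, adjusted p = 0.767).

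The Akt2 gene spans chr7:27591552-27640826 on the plus strand and encodes the AKT kinase that carries insulin-stimulated glucose uptake in fat and muscle. Its level was 323 and 321 CPM in the untreated libraries, 337 and 316 CPM after A66, 293 and 318 CPM after palmitate, and 291 and 303 CPM after both. The A66 libraries lay on both sides of the untreated ones, and the palmitate plus A66 libraries lay below both groups without palmitate. A66 gave a log2 difference of 0.024 (-0.061 to 0.11, adjusted p = 0.872) and A66 on palmitate gave -0.043 (-0.14 to 0.052, adjusted p = 0.739). Palmitate plus A66 differed from A66 by -0.14 (-0.23 to -0.042, adjusted p = 0.123) and from untreated cells by -0.12 (-0.21 to -0.021, adjusted p = 0.139). The former passed without the filter on low counts (0.0336) and in a fit of its 4 libraries (0.0412). It did not pass in DESeq2 or with RLE or library-size scaling. A minimum count in every library and a replicate block in the main fit also left it uncalled (adjusted p up to 0.117 over these settings). The latter passed only with scaling by library size alone (0.0478), with adjusted p up to 0.142 otherwise. On leaving out each library in turn neither passed. The log2 values then ran from -0.18 to -0.088 for the former and from -0.15 to -0.084 for the latter.

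The Foxo1 gene spans chr3:52268336-52353221 on the plus strand and encodes the FOXO factor most studied as a target of insulin in adipocytes and liver. It shares 674 exon bases with the antisense gene Gm20402, which had 0 counts. Its level was 38.3 and 38.4 CPM in the untreated libraries, 38.6 and 38.3 CPM after A66, 37.3 and 40.4 CPM after palmitate, and 36.0 and 37.3 CPM after both. The palmitate libraries lay on either side of the A66 and untreated libraries, which overlapped. A66 without palmitate gave a log2 difference of 0.0082 (-0.11 to 0.12, adjusted p = 0.972) and on palmitate -0.083 (-0.20 to 0.032, adjusted p = 0.538).

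The Foxo3 gene spans chr10:42181841-42276755 on the minus strand and encodes a second FOXO factor. Its level was 44.4 and 42.0 CPM in the untreated libraries, 41.8 and 41.7 CPM after A66, 40.6 and 42.2 CPM after palmitate, and 41.4 and 42.7 CPM after both. The untreated libraries were above those with A66 by less than they differed from each other. The log2 difference was -0.046 (-0.16 to 0.069, adjusted p = 0.810) without palmitate and 0.023 (-0.087 to 0.13, adjusted p = 0.898) with it.

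Over the 9 genes, 1 passed the edgeR test of A66 against untreated cells at an adjusted p under 0.05, beside 1.84% of the 14158 genes tested. At an unadjusted p under 0.05 there were 3, Igf1r, Grb10 and Irs2, beside 12.8% of all genes, and DESeq2 called none of the 9, giving Grb10 no adjusted p. For palmitate plus A66 against palmitate none of the 9 passed, beside 2.81% of the 14587 genes tested, and none had an unadjusted p under 0.05, beside 14.4%. For palmitate against untreated cells none passed, beside 1.17%, and 1, Insr, had an unadjusted p under 0.05, beside 12.0%. For palmitate plus A66 against A66 none passed, beside 2.73%, and 4 had an unadjusted p under 0.05, beside 14.6%. These were Irs1, Irs2 and Akt2, which were lower, and Grb10, which was higher, and DESeq2 called Irs1. For palmitate plus A66 against untreated cells none passed, beside 7.50%, and 2, Igf1r and Akt2, had an unadjusted p under 0.05, beside 20.8%. The interaction of A66 with palmitate passed for none of the 9, beside 0.00686%, which is the single gene Hmox1, and 1, Grb10, had an unadjusted p under 0.05, beside 7.92%. DESeq2 called none of the 9 in the comparisons of palmitate plus A66 with palmitate, palmitate with untreated, palmitate plus A66 with untreated and the interaction. With A66 averaged over both settings 1 passed, Igf1r, beside 4.97%, and 2, Igf1r and Insr, had an unadjusted p under 0.05, beside 17.9%.

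The half-width of the 95% interval ran from 0.081 for the best measured of the 9 to 0.49 for Grb10 in the comparison of A66 with untreated cells, on the log2 scale. The CPM of the A66 and untreated libraries did not overlap for 5 of the 9, beside 42.5% of all genes, so with 2 libraries a group such a separation was common. It held for 3 of 9 between palmitate plus A66 and palmitate (44.3% of genes), for 4 of 9 between palmitate and untreated (40.5%) and for 7 of 9 between palmitate plus A66 and A66 (46.6%). The last comparison had 6 of the 9 lower, Insr, Irs1, Irs2, Akt1, Akt2 and Foxo1, and Grb10 higher. The median log2 difference of the 9 genes there was -0.070, beside 0.00044 over all genes tested. The summed adipocyte markers were 17739 to 18435 CPM with A66 and 15452 to 16529 CPM with palmitate plus A66, the pre-adipocyte and fibroblast markers 4047 to 4163 CPM and 3681 to 3921 CPM, and Cd68 and the other macrophage markers together 2.90 to 3.41 CPM and 5.65 to 5.94 CPM. The part of any of these in the differences of the 9 genes was not tested.

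**Figure D3:**
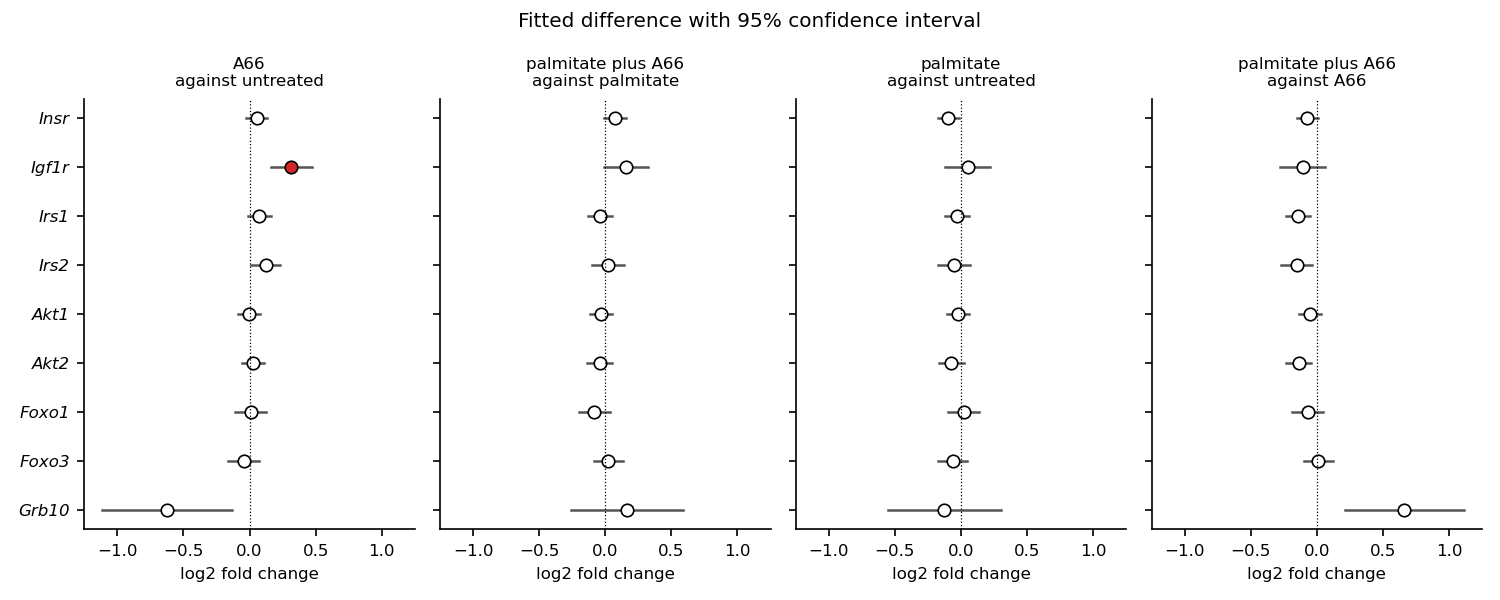
Log2 fold change of each gene in 4 comparisons, with 95% confidence intervals. The filled red point passed an adjusted p under 0.05, and open points did not. Igf1r under A66 at 0.32 is the one filled point, and the intervals of Grb10 are the widest.

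Ratios of counts within a library need no scaling between libraries, and they were compared for the paired family members with no test. Akt2 counts were 1.44 to 1.63 times Akt1 counts over the 8 libraries, although Akt1 was the higher per length. The ratio overlapped between A66 and untreated cells, and did not between palmitate plus A66 and A66, where both libraries with palmitate were lower, by a log2 difference of -0.086. Irs2 counts were 0.169 to 0.190 of Irs1 counts, and the groups overlapped in each of the 4 comparisons. The Foxo3 to Foxo1 ratio was 1.04 to 1.16. It was lower with A66 than without by a log2 value of -0.055, and higher with A66 on palmitate by 0.11. It was also lower with palmitate than in untreated cells (-0.081), and higher with palmitate plus A66 than with A66 (0.080). The groups did not overlap in any of the 4 comparisons. The share of other gene pairs whose ratios separate in this way was not computed. The Igf1r to Insr ratio was 0.0455 and 0.0468 in the untreated libraries, 0.0521 and 0.0588 after A66, 0.0532 and 0.0487 after palmitate, and 0.0576 and 0.0503 after both. Both untreated libraries had the lowest values, and the A66 libraries were higher by a log2 value of 0.26, with no overlap. With palmitate present the A66 difference was 0.081 and the groups overlapped.

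**Figure D4:**
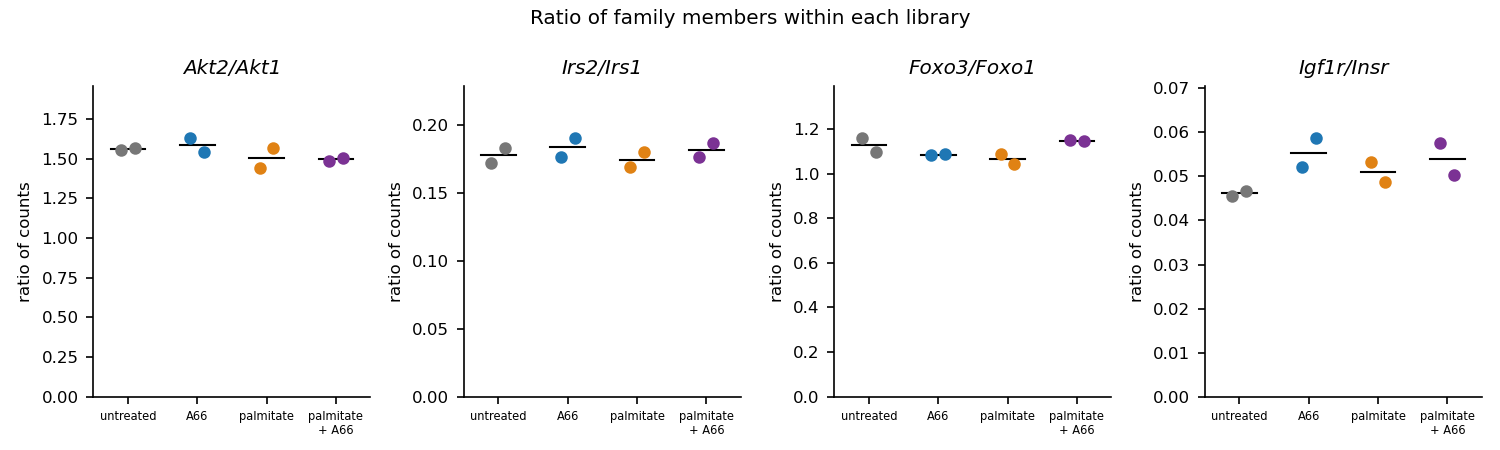
Ratio of counts of 4 pairs of family members within each library, on axes from 0. Points are libraries and bars are means of 2. The Igf1r to Insr ratio is lowest in both untreated libraries (0.0455 and 0.0468), while the Irs2 to Irs1 ratio overlaps between groups.

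The genes whose pattern over the 8 libraries was most like that of a member were sought for the 3 members with the widest range of group means, Grb10, Igf1r and Irs2, by the root mean square difference of centred log2 CPM. For Igf1r the nearest of 14587 genes was Akr1c14 at 0.051, beside a spread of 0.14 of Igf1r about its own mean, followed by Gm3362 at 0.062 and Notch3 at 0.067. For Irs2 they were Rhbdf2 at 0.019, Tmub1 at 0.027 and Txnip at 0.028, beside a spread of 0.085. For Grb10 they were 1810062O18Rik at 0.12, Gm26869 at 0.13 and Agap2 at 0.14, beside a spread of 0.34. These 3 genes were scarce, at mean log2 CPM of -0.48, -1.23 and -1.12, which is below 1 CPM. The part of counting error in their likeness to Grb10 was not tested.

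The wider cascade was read through 6 lists. The receptor and adaptor list holds Insr and Igf1r but neither Irs1 nor Irs2, the list of brakes holds Grb10, and the other lists hold none of the 9 genes. Under A66, where 1.84% of all genes were called, the receptor and adaptor list, 13 of 16 tested, had as its 1 call the rise of Igf1r given above, and none that fell, with a median log2 difference of 0.030 beside -0.0011 over all genes. The list of receptor brakes, 15 of 18 tested, had 1 that rose, Grb14, and none that fell (median 0.033). Grb14, a relative of Grb10 that also inhibits the insulin receptor, was at 8.50 and 7.66 CPM in the untreated libraries and 11.1 and 10.2 CPM with A66, a log2 difference of 0.41 (0.19 to 0.63, adjusted p = 0.0453). It did not pass on leaving out the second untreated library or either A66 library (adjusted p up to 0.441), with scaling by library size alone (0.0543) or with all 8 libraries in a fit (0.0775), and DESeq2 gave it no adjusted p. The PI3K list, 13 of 15 tested, had 1 gene that fell, Pik3r1, and none that rose (median 0.028). Pik3r1, which encodes the p85α regulatory subunit that binds p110α, was at 264 and 247 CPM in the untreated libraries and 206 and 203 CPM with A66, a log2 difference of -0.32 (-0.40 to -0.23, adjusted p = 1.34e-04). This held on leaving out each of the 4 libraries in turn. At an unadjusted p under 0.05 there were 2 of the receptor and adaptor list, 5 of the brakes and 2 of the PI3K list, beside 12.8% of all genes.

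Further down, none of the 19 tested genes of the AKT arm, 13 of the FOXO arm and 17 FOXO target genes passed under A66 in edgeR. At an unadjusted p under 0.05 there were 3, 1 and 5 of them, beside 12.8% of all genes (1.84% called), and DESeq2 called none. Their median log2 differences were -0.023, -0.014 and 0.035. Among the AKT arm, Slc2a4, the insulin-responsive glucose transporter, was at 157 and 155 CPM in untreated cells and 140 and 140 CPM with A66 (log2 -0.15, adjusted p = 0.0659).

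With palmitate present, A66 again lowered Pik3r1, from 245 and 237 CPM to 181 and 187 CPM, a log2 difference of -0.39 (-0.48 to -0.30, adjusted p = 1.97e-05). In the PI3K list Pik3ip1, an inhibitor of PI3K at the membrane, rose by 0.19 (adjusted p = 0.0499), a call that was lost on leaving out any of the 4 libraries, in DESeq2 (0.0631) and with scaling by library size alone (0.0911). In the AKT arm Slc2a4 fell by 0.23 on the log2 scale (adjusted p = 0.00762), from 134 and 150 CPM to 118 and 124 CPM. Among the FOXO targets Gadd45a, a gene of growth arrest and DNA damage, rose by 0.24 (adjusted p = 0.00904) and Klf15, a transcription factor of gluconeogenic and lipid genes, fell by 0.19 on the log2 scale (adjusted p = 0.0278). The calls of Slc2a4 and Gadd45a were lost without the second palmitate library. Slc2a4 was also lost without the first palmitate plus A66 library, and Gadd45a without the second. The call of Klf15 was lost on leaving out any of the 4 libraries. With 1 library left out, Slc2a4 lay between -0.31 and -0.15. None of the 13 receptor and adaptor genes, 16 receptor brakes and 13 FOXO arm genes passed. At an unadjusted p under 0.05 there were 3, 4 and 3, beside 14.4% of all genes (2.81% called), and DESeq2 called none.

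Palmitate alone raised Akt1s1, the AKT substrate PRAS40, by 0.28 on the log2 scale (adjusted p = 0.0273), from 41.1 and 46.1 CPM to 49.8 and 56.5 CPM. Of the 17 FOXO targets 1 rose and 2 fell, beside 1.17% of all genes called. Gadd45a rose by 0.22 (adjusted p = 0.0327), while Pnpla2, the adipose triglyceride lipase, fell by 0.25 (adjusted p = 0.0164) and Bcl6, a transcriptional repressor, fell by 0.21 on the log2 scale (adjusted p = 0.0284). Without the first untreated library each of these 4 calls was lost. Akt1s1 was also lost without the second palmitate library and Gadd45a without the first. Pnpla2 was lost without either untreated library, without the first palmitate library and in DESeq2. Bcl6 was lost on leaving out any of the 4 libraries. The log2 value of Pnpla2 was -0.15 without the first palmitate library. None of the PI3K, receptor and adaptor, brake and FOXO arm genes passed. At an unadjusted p under 0.05 there were 1, 4, 3 and 2, beside 12.0% of all genes, and DESeq2 called none.

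Between palmitate plus A66 and A66, 1 of 17 FOXO targets rose and 3 fell, beside 2.73% of all genes called. Gadd45a rose by 0.33 (adjusted p = 3.76e-04), and Klf15 fell by 0.26 on the log2 scale (adjusted p = 0.00234), and both calls held on leaving out each library in turn. Pck1, the enzyme of glyceroneogenesis, fell by 0.56 on the log2 scale (adjusted p = 0.00442), but did not pass in DESeq2 (adjusted p = 0.195) nor without the first library of either group. Pnpla2, which comes after the first 3 of this list by p, fell by 0.25 (adjusted p = 0.00637). DESeq2 also called Pnpla2, but this call was not checked under the other settings or with libraries left out. In the AKT arm Tbc1d4, the AKT substrate AS160, fell by 0.23 and Slc2a4 by 0.22 on the log2 scale (both adjusted p = 0.0115). Ywhab, a 14-3-3 protein that binds phosphorylated FOXO, fell by 0.22 on the log2 scale (adjusted p = 0.00348), and Pik3ip1 rose by 0.21 (adjusted p = 0.0284). Tbc1d4 and Ywhab did not pass without the first library of either group, and Slc2a4 and Pik3ip1 did not without 3 of the 4 libraries. Pik3ip1 was also lost with scaling by library size alone (0.0514). None of the 16 brakes and 13 receptor and adaptor genes passed. At an unadjusted p under 0.05 there were 2 and 1, beside 14.6% of all genes, and DESeq2 called none.

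Palmitate plus A66 differed from untreated cells in more of these genes. Pik3r1 was lower by -0.47 (adjusted p = 3.13e-07), Slc2a4 by -0.37 (adjusted p = 2.57e-05), Pnpla2 by -0.38 (adjusted p = 4.08e-05), Tbc1d4 by -0.27 (adjusted p = 0.00132) and Klf15 by -0.26 (adjusted p = 0.00136). Gadd45a was higher by 0.46 (adjusted p = 3.38e-06), Pik3ip1 by 0.29 (adjusted p = 0.00100) and Akt1s1 by 0.23 (adjusted p = 0.0263). Of the 16 brakes 2 rose, Dok1 by 0.36 (adjusted p = 0.0187) and Socs6 by 0.20 (adjusted p = 0.0241), both adaptors that restrain receptor signalling. Ywhab fell by 0.20 on the log2 scale (adjusted p = 0.00317). The calls of Dok1, Socs6, Ywhab and Tbc1d4 were lost without the first palmitate plus A66 library. Dok1 was also lost without the first untreated library and Socs6 without the second untreated or the second palmitate plus A66 library and with scaling by library size alone (0.0537). Akt1s1 was lost without the first untreated library (log2 0.15) or either palmitate plus A66 library. In all, the AKT arm had 1 gene that rose and 2 that fell, the FOXO arm 1 that fell, the FOXO targets 1 that rose and 4 that fell, and the PI3K list 1 in each direction, beside 7.50% of all genes called. None of the 13 receptor and adaptor genes passed, 4 had an unadjusted p under 0.05, beside 20.8% of all genes, and DESeq2 called none. The interaction passed for none of the genes of the 6 lists in edgeR or DESeq2, and between 0 and 3 genes of each had an unadjusted p under 0.05, beside 7.92% of all genes. The summed adipocyte markers, Slc2a4 among them, were 18038 to 18084 CPM in untreated cells, 15991 to 16959 CPM with palmitate and 15452 to 16529 CPM with palmitate plus A66. Cd68 and the other macrophage markers together were 2.76 to 3.70, 3.99 to 4.36 and 5.65 to 5.94 CPM. Of these Cd68 alone, at 2.57 to 5.74 CPM over the 8 libraries, reached 1 CPM. The pre-adipocyte and fibroblast markers were 3997 to 4221, 4146 to 4451 and 3681 to 3921 CPM. The part of any of these markers in the list changes was not tested. The groups in these comparisons share libraries, so their calls are not independent of each other.

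With A66 averaged over both settings, 3 of 16 receptor brakes rose and none fell, beside 4.97% of all genes called in either direction. Enpp1, a membrane protein that inhibits the insulin receptor, rose by 0.59 (adjusted p = 0.0232), Socs3, a feedback inhibitor of cytokine and insulin receptors, by 0.27 (adjusted p = 0.0383) and Grb14 by 0.27 (adjusted p = 0.0453). Enpp1 was scarce, with 53 and 87 counts in the untreated libraries and 108 and 121 after A66. It had 85 and 82 counts after palmitate, and 99 and 109 after both. Of the FOXO targets 3 rose and 1 fell, with Gadd45a at 0.18 (adjusted p = 0.00312), Klhl24 at 0.15 (adjusted p = 0.00380) and Pnpla2 at -0.13 (adjusted p = 0.0361). Of the PI3K list Pik3r1 fell by 0.35 (adjusted p = 4.46e-07) and Pik3r3, another regulatory subunit, by 0.13 on the log2 scale (adjusted p = 0.0112), while Pik3ip1 rose by 0.14 (adjusted p = 0.0343). In the AKT arm Slc2a4 fell by 0.19 on the log2 scale (adjusted p = 0.00104). None of the 13 FOXO arm genes passed, 2 had an unadjusted p under 0.05, beside 17.9% of all genes, and DESeq2 called none. The averaged call of Pik3r3 was lost without the second A66 or the first palmitate plus A66 library. The averaged calls of Enpp1, Socs3, Grb14, Pnpla2 and Pik3ip1 did not hold without most of the 8 libraries, each left out in turn. Those of Grb14 (adjusted p = 0.0541) and Pik3ip1 (0.0722) were also lost with scaling by library size alone, and those of Grb14 (0.0539) and Pnpla2 (0.180) in DESeq2. The log2 value of Pnpla2 lay between -0.18 and -0.078 with 1 library left out.

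**Figure D5:**
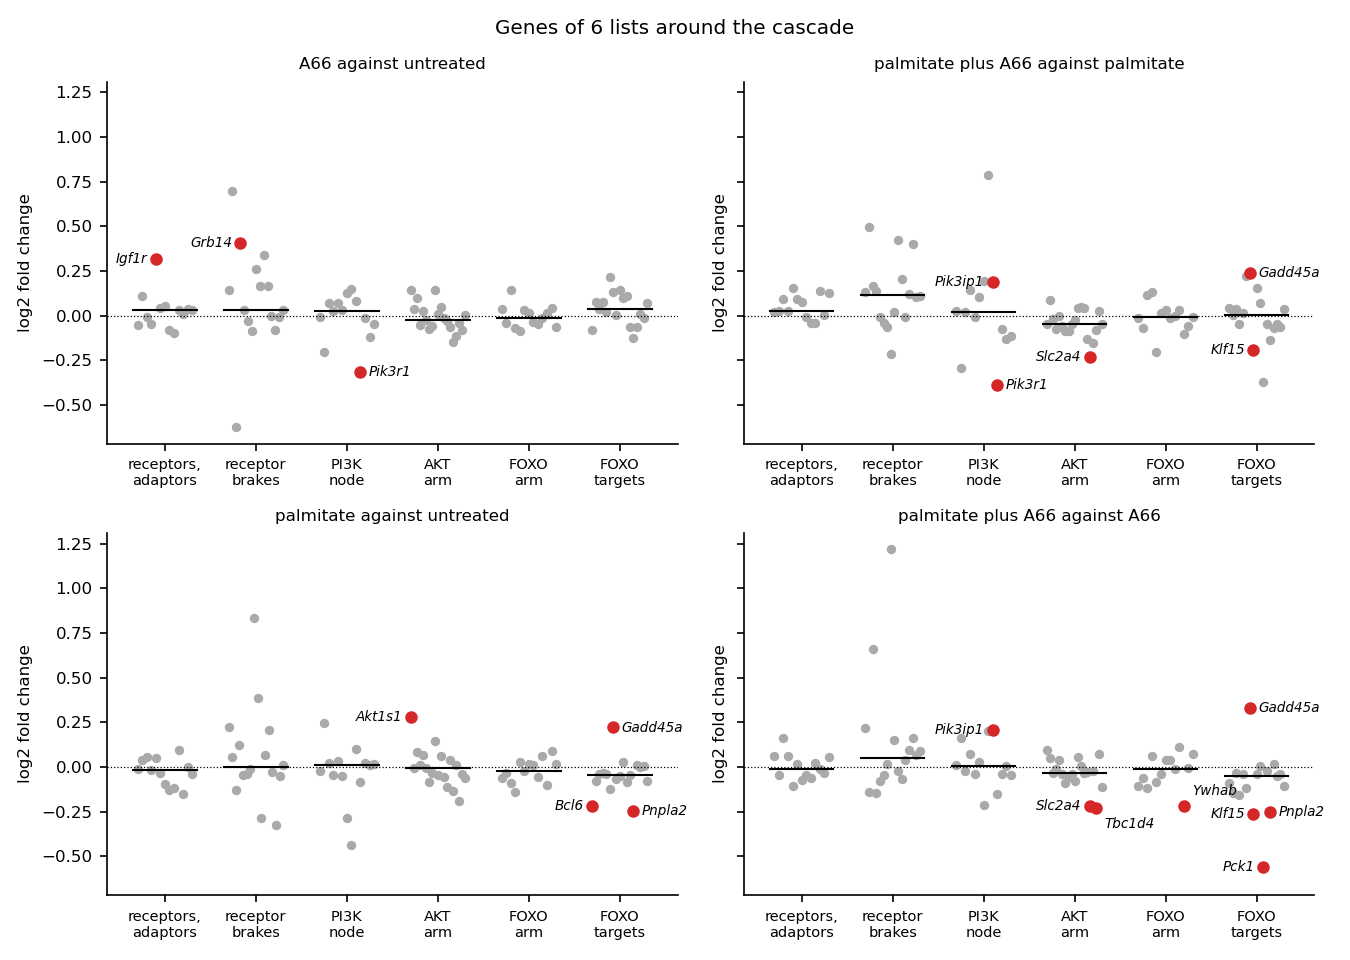
Log2 fold change of the tested genes of 6 lists around the cascade in 4 comparisons. Points are genes, red and named where the adjusted p was under 0.05, and bars are list medians. Pik3r1 is the lowest red point under A66 both without palmitate (-0.32) and with it (-0.39).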

How the data were processed

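Poly(A) RNA was sequenced in 8 libraries made with a stranded kit. Per the study's methods and labels, TopHat 2.0.11 placed the reads on GRCm38 and HTSeq counted them on Ensembl genes. The authors deposited the raw counts, 1 column per library. The strand setting and annotation are not given in the sources used here. Further columns of the file hold the authors' own DESeq2 comparison (mean, log2 fold change, standard error, statistic and p-values) and were not used. Samples were grouped by the treatment in the labels. The labels give 2 μM A66 and untreated controls, whereas the methods give 1 μM against DMSO. The labels do not say that replicates came from separate cultures, though the methods speak of biological repeats, so p-values may measure technical spread.

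Of 43629 identifiers 42462 matched a symbol in GENCODE M21, and positions and lengths come from it. Tests used edgeR 4.0.16 under R 4.3.3 (TMM, filterByExpr with a minimum count of 10, quasi-likelihood tests, two-sided, Benjamini-Hochberg adjustment over all genes tested). A66 was compared with untreated cells in 4 libraries and the other contrasts in a fit of 8. Nearest patterns used log2 CPM with a prior count of 2. The named genes are the 9 members, up to 3 genes per list and contrast with an adjusted p under 0.05, and the 3 nearest patterns of 3 members. Pnpla2 between palmitate plus A66 and A66, and Slc2a4 under A66, were named in addition. The members and lists were chosen with earlier results of these data known. A gene of the AKT arm list is not reported here and was left out of its counts. Alternatives were RLE and library-size scaling, DESeq2 1.42.0, other filters, fits of 4 or 8 libraries, a block on the replicate number and leaving out each library. The averaged A66 contrast, the crossed block and the transcript length were added after seeing the data. The scripts were tested on simulated counts. Replicates were compared by chi-square, which averaged 6.15 to 8.99 over genes, above that of sampling alone. Promoter windows are from RefSeq (GRCm38.p6).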

Additional observations from a re-analysis of the deposited data

Results flagged for a closer look

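For 3 of the 9 genes the A66 libraries all moved one way from the untreated mean and the palmitate plus A66 libraries all moved the other way from the palmitate mean, beside 17.2% of the 14587 genes tested. Grb10 was lower with A66 in the absence of palmitate and higher with A66 in its presence. The difference of both effects was 0.79 on the log2 scale (95% confidence interval 0.17 to 1.41, adjusted p = 0.501 in edgeR). It ran from 0.46 to 1.24 when each library was left out, and the library that stood lowest held 57 counts. Irs1 was higher with A66 alone and lower with A66 on palmitate, with a difference of -0.11 (-0.24 to 0.016, adjusted p = 0.698) that ran from -0.17 to -0.056 with 1 library left out. For Foxo1, whose A66 libraries overlapped the untreated ones, the corresponding difference was -0.089 (-0.25 to 0.075, adjusted p = 0.849), with a range of -0.15 to -0.032. None of these differences passed the adjusted threshold, and their cause was not tested.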

How the results depend on the processing

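Over 757 refits of the 9 genes' comparisons under other settings or with a library left out, 702 kept their direction and side of the threshold, 7 lost a call, 16 gained one and 32 changed sign. DESeq2 gave no adjusted p for 8 further values, mostly of Grb10 and the interaction, and these are not counted.

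Without the filter on low counts, the genes called numbered 459 for A66 against untreated, 652 for palmitate plus A66 against palmitate, 396 for palmitate against untreated, 664 for palmitate plus A66 against A66 and 91 for the interaction. For the interaction there were 2 with scaling by library size alone, 21 in DESeq2 and 3 with the replicate block. For palmitate plus A66 against A66 a fit of those 4 libraries called 689. Leaving out 1 library gave 98 to 635, 147 to 426, 71 to 245 and 107 to 346 genes in the first 4 comparisons, 437 to 927 for palmitate plus A66 against untreated, 0 to 10 for the interaction and 412 to 779 for averaged A66. The cause of these shifts was not tested.

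Deviations of same-numbered libraries correlated weakly and with either sign, so the numbers were not taken to pair the samples. The correlations ran from -0.157, for A66 with palmitate plus A66, to 0.170, for palmitate with palmitate plus A66. Blocking on the replicate number (replicate block) gave counts of 282, 448, 195, 438, 1100, 3 and 757, beside 261, 410, 171, 398, 1094, 1 and 725. The call of Pik3ip1 under A66 on palmitate was lost with it (adjusted p = 0.0533). In the 4 libraries of A66 and palmitate plus A66 the block called 760 genes, beside 398 in the main test. Among them were Irs1 (adjusted p = 0.0277), Akt2 (0.0344) and Grb10 (0.0491). The crossed block, added after seeing the data, swaps the replicate numbers of the palmitate plus A66 libraries. It called 1371 genes, among them Irs1, Irs2, Akt2 and Grb10. The correlation of these 2 groups was -0.157 in the same data, so the swapped pairing gives no independent support.

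With scaling by library size alone the sign changed for Foxo1 under A66 (-0.0078), Irs2 under A66 on palmitate (-0.00070), Foxo3 between palmitate plus A66 and A66 (-0.0061) and averaged Irs1 (-0.00025), and without the filter for Akt1 under A66 (0.0014). On leaving out 1 library the sign changed, over the ranges given, for Akt1 (-0.012 to 0.0088) and Akt2 (-0.025 to 0.074) under A66, Irs2 (-0.060 to 0.10), Akt2 (-0.10 to 0.018) and Foxo3 (-0.0042 to 0.051) under A66 on palmitate, Igf1r (-0.018 to 0.12), Irs1 (-0.085 to 0.029), Irs2 (-0.13 to 0.026) and Foxo1 (-0.038 to 0.077) under palmitate. The same held for Foxo3 (-0.014 to 0.034) between palmitate plus A66 and A66, Insr (-0.050 to 0.0096), Irs2 (-0.089 to 0.021), Foxo3 (-0.080 to 0.0010) and Grb10 (-0.0074 to 0.082) between palmitate plus A66 and untreated, Insr (-0.0052 to 0.054) in the interaction, and Irs1 (-0.013 to 0.044), Akt2 (-0.040 to 0.021) and Foxo3 (-0.033 to 0.0071) under averaged A66.

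By the longest coding transcript the level per kb was 41.0 for Insr, 1.70 for Igf1r, 75.8 for Akt1, 69.8 for Akt2, 6.12 for Foxo3 and 0.481 for Grb10. With 2 libraries a group and 57 to 141 counts, Grb10 allows only large differences to be seen.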
